A study of Mus musculus with 8 samples.

Results

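The genes described here are 10 transcripts that lie downstream of Ras and the MAPK cascade, taken by name from the table of 54532 mouse genes. They comprise the dual-specificity phosphatases Dusp4, Dusp5 and Dusp6, the Sprouty genes Spry1, Spry2 and Spry4, the Sprouty-related genes Spred1 and Spred2, and the ETS transcription factors Etv4 and Etv5. All 10 were present in the table, and all 10 passed the filter on low counts that left 17138 genes for testing. RNA-seq was performed on poly(A) RNA from whole lungs of CC-LR mice at 14 weeks of age, comparing 4 control mice with 4 mice given the STAT3 inhibitor TTI-101 for 4 weeks, with 1 library per mouse. CC-LR mice carry a conditional oncogenic allele, switched on by Cre recombinase under control of club cell secretory protein, so both groups express the oncogene in the lung epithelium and form tumors. The sources used here give neither the route of TTI-101 in these 8 mice nor what the control mice received. Whole lung mixes tumor, normal epithelium, stroma, vessels and immune cells, so fewer cells of a type and less RNA per cell cannot be told apart.

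Active Ras proteins switch on the RAF, MEK and ERK kinases in turn, and ERK phosphorylates transcription factors that switch on a short set of target genes. Many of these targets act back on the pathway. DUSP6 dephosphorylates ERK in the cytoplasm, DUSP4 and DUSP5 act on MAP kinases in the nucleus, and the Sprouty and SPRED proteins restrain signaling between receptors, Ras and RAF. SPRED proteins do so by bringing the Ras-inactivating protein neurofibromin to the membrane. ETV4 and ETV5 carry the output of FGF and ERK signaling to DNA, and Etv5 is known as a factor of alveolar type 2 cells. In tumors the transcripts of these genes are commonly read together as a measure of MAPK pathway output.

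Promoters from RefSeq (GRCm38.p6), covering 250 bases before to 50 bases after the gene start, were found for 7 of the 10 genes, with 8 promoters in all because Etv5 has 2 starts. They were searched on both strands for the STAT motif TTCNNNGAA, the ETS motif CCGGAAG, the AP-1 motif TGANTCA and the CArG box, to which serum response factor binds. The first 3 motifs were found in 0 of the 8 promoters. They are in 8.3%, 8.86% and 7.81% of all 32851 promoters of this length. A CArG box, held by 1.63% of all promoters, was found in the Dusp5 promoter (chr19:53528895-53529194, plus strand). That promoter holds 2 of them, side by side and without overlap, starting at positions -82 and -72 relative to the RefSeq start. This start is not the same base as the start of the Dusp5 gene model given below. The Dusp5 promoter is shown because it alone among the 8 held any of the motifs. The Dusp6 promoter (chr10:99262981-99263280, plus strand) is shown because Dusp6 had the highest mean level of Dusp4, Dusp5 and Dusp6 in these lungs. Capitals mark the CArG boxes.
Dusp5: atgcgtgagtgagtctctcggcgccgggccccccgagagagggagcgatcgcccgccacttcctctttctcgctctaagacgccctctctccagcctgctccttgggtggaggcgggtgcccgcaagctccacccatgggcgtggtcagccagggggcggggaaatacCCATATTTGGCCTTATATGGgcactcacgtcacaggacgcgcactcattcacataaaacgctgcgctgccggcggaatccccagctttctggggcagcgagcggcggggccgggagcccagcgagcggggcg
Dusp6: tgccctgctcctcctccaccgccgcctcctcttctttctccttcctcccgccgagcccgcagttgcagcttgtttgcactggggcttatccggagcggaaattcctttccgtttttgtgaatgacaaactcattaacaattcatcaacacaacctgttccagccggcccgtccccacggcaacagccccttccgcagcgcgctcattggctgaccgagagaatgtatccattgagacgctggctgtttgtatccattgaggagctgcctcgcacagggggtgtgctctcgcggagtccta

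The 8 libraries held 16075855 to 26873509 counts each, with overlapping depths in the groups. The 10 genes were covered by between 54 and 8186 counts per library, and the lowest value, for Etv4 in TTI-101-treated mouse 3, has a counting error of 13.6%. This error covers counting only. Sftpc, Scgb1a1 and the other listed markers of lung epithelium had counts in every library. Control mouse 4 stood apart from the other 7 mice, at 101.1 on the first principal component (45.2% of the variance) against at most 17.9, with 5.56% mitochondrial counts against 2.01% to 2.85%. Many values are therefore given also without this mouse. CPM below are counts scaled to library size after TMM. Stat3 itself had a log2 fold change of -0.08 (SE 0.15, edgeR adjusted p = 0.886).

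Per base of gene length, the 10 transcripts spanned a wide range of levels, from Etv5 and Spry1 at the top to Etv4 at the bottom. The mean over all 8 lungs, in RPKM (CPM per kilobase of gene model), was 57.4 ± 8.93 (SD, n = 8) for Etv5, 48.6 ± 7.19 for Spry1 and 45.2 ± 10.3 for Dusp6, which placed each of these above 93.8% or more of the genes tested. Spry2 followed at 23.8 ± 3.40 RPKM, Spred1 at 18.6 ± 6.95 and Spred2 at 11.8 ± 1.77. The lowest levels were those of Dusp4 at 7.58 ± 4.27 RPKM, Spry4 at 7.17 ± 1.27, Dusp5 at 5.69 ± 1.89 and Etv4 at 3.13 ± 2.16, the last above 38.5% of the genes tested. Among the 9 pairs of neighbours in this order, the gap between the means exceeded the larger SD for Dusp6 over Spry2 (21.5 RPKM, higher in all 8 lungs) and for Dusp5 over Etv4 (2.55 RPKM, higher in 7 of 8 lungs). For the other 7 pairs it did not, with gaps from 0.413 RPKM between Dusp4 and Spry4 to 8.81 RPKM between Etv5 and Spry1. The SD is a spread between lungs and ignores that both genes of a pair were measured in the same lungs. Dusp4 was above Spry4 in 3 of 8 lungs and Spry4 above Dusp5 in 6 of 8. In each of the remaining pairs, the gene with the higher mean was the higher in 7 of 8 lungs. By these means, Dusp6 was the most abundant of the 3 phosphatases, Spry1 of the Sprouty genes, Spred1 of the SPRED pair and Etv5 of the ETS pair.

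To ask whether treatment with TTI-101 altered MAPK output, each gene was compared between groups within a fit over all 17138 genes. None of the 10 genes differed between groups at an adjusted p under 0.05 by edgeR's quasi-likelihood test, and Etv4 alone had an unadjusted p under 0.05. The same count of 0 was obtained with DESeq2 and with limma-voom, each with Etv4 alone at an unadjusted p under 0.05. Across all genes, edgeR called 0 of 17138 (0%) at an adjusted p under 0.05 and 1132 (6.61%) at an unadjusted p under 0.05, with 3.02% of all genes higher and 3.58% lower. Over all genes, DESeq2 called 4 and limma-voom 0 at an adjusted p under 0.05. The single Etv4 among 10 genes is near that background. Fitted log2 fold changes were negative for 7 genes and positive for 3, with a median of -0.16 against a median of 0.00340 over all genes tested. Control and treated mice overlapped for every one of the 10 genes, while 2.96% of all genes tested had groups that did not overlap (1.53% higher and 1.43% lower).

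**Figure D1:**
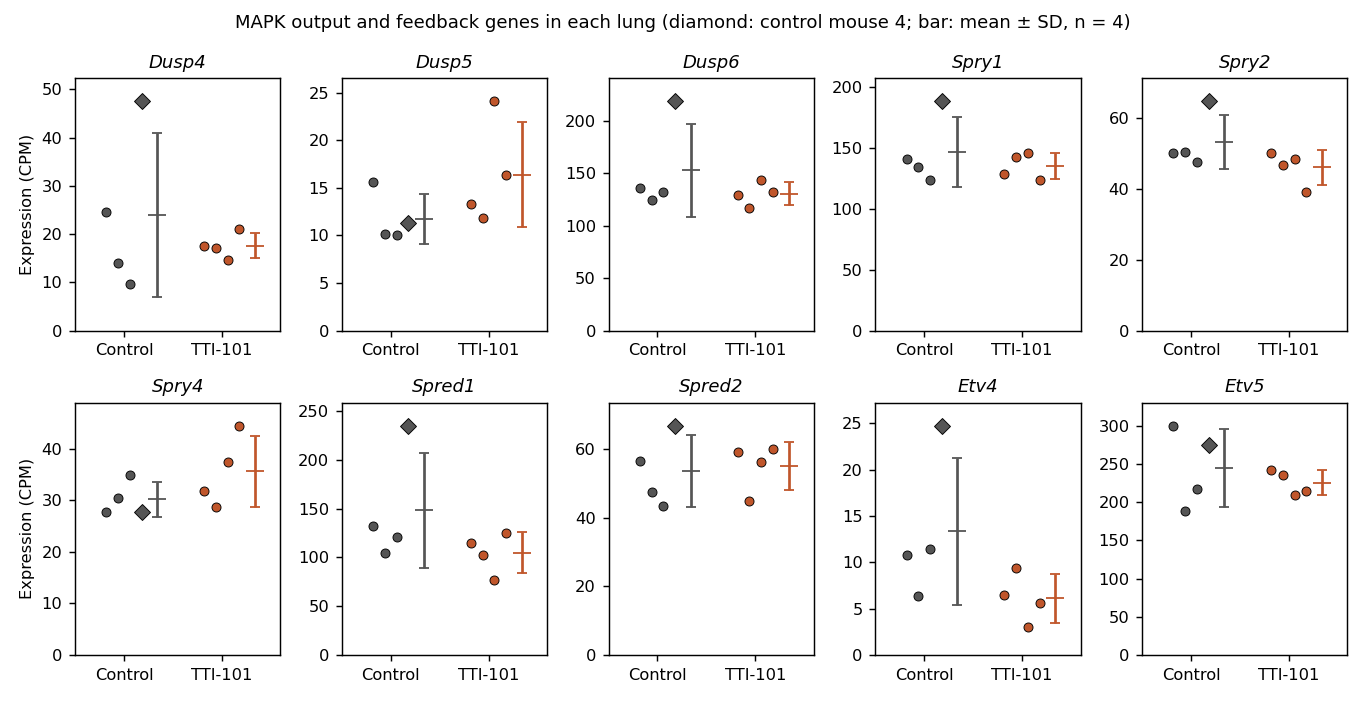
Expression of the 10 genes in each lung, in CPM on linear axes from 0, with control mice in gray, TTI-101-treated mice in orange, and the mean ± SD (n = 4) beside each group. The diamond, control mouse 4, is the highest of all 8 mice for 7 of the 10 genes, and the groups overlap in every panel.

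Among the phosphatases, Dusp6 and Dusp4 were lower on average in treated lungs and Dusp5 was higher, and none of the 3 passed the test. Dusp6 (ENSMUSG00000019960, chromosome 10 of GRCm38, 99263231 to 99267489), whose product is selective for ERK, was at 136, 124, 132 and 219 CPM in control mice 1 to 4 and at 129, 117, 143 and 132 CPM in TTI-101-treated mice 1 to 4. Apart from control mouse 4, the 7 mice lay within a narrow band in which the groups overlapped. Its log2 fold change was -0.23 (SE 0.19, 95% interval -0.65 to 0.19, edgeR adjusted p = 0.722), and without control mouse 4 it was 0.0050. This interval corresponds to a treated level between 0.638 and 1.14 times that of control.

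Dusp4 (ENSMUSG00000031530, chromosome 8, 34807297 to 34819894), a nuclear phosphatase of ERK and JNK, was at 24.6, 14.0, 9.71 and 47.5 CPM in control mice and at 17.4, 17.2, 14.7 and 21.04 CPM in treated mice. All 4 treated mice lay inside the range of control mice 1 to 3, and the lowest and the highest of the 8 values were both controls. The log2 fold change of -0.45 had a wide 95% interval, -1.36 to 0.47 (SE 0.41, edgeR adjusted p = 0.747), and it was 0.13 without control mouse 4. Dusp5 (ENSMUSG00000034765, chromosome 19, 53529109 to 53542431), which acts on ERK in the nucleus, was at 15.6, 10.1, 10.0 and 11.3 CPM in control mice and at 13.3, 11.8, 24.1 and 16.4 CPM in treated mice. All 4 treated mice lay above the control mean, and 2 lay above every control mouse. Its log2 fold change of 0.48 (SE 0.26, edgeR adjusted p = 0.657) had a 95% interval of -0.09 to 1.04 and was 0.23 without TTI-101-treated mouse 3, the highest of the 8. The unadjusted p from edgeR, 0.0895 with all mice, was 0.0347 without control mouse 1 and 0.0353 when TTI-101-treated mouse 2 was left out.

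The estimates for the Sprouty genes differed in sign, and none of the 3 passed the test. Spry1 (ENSMUSG00000037211, chromosome 3, 37639947 to 37644598) was at 141, 135, 124 and 188 CPM in control mice and at 129, 143, 146 and 124 CPM in treated mice. Again control mouse 4 was the highest and the remaining values overlapped, with a log2 fold change of -0.12 (SE 0.16, edgeR adjusted p = 0.825) that became 0.033 without this mouse. Spry2 (ENSMUSG00000022114, chromosome 14, 105891947 to 105896819) was at 50.1, 50.4, 47.6 and 64.6 CPM in control mice and at 50.04, 46.7, 48.3 and 39.0 CPM in treated mice. For Spry2, 2 treated mice lay below every control mouse. The log2 fold change was -0.21 (SE 0.15, 95% interval -0.53 to 0.12, edgeR adjusted p = 0.686) and -0.09 without control mouse 4.

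Spry4 (ENSMUSG00000024427) had a higher average in treated lungs. It was at 27.7, 30.4, 34.8 and 27.6 CPM in control mice and at 31.8, 28.7, 37.5 and 44.5 CPM in treated mice. Control mouse 4, the highest for Spry1 and Spry2, had the lowest Spry4 value of the 8 mice. The log2 fold change of 0.24 (SE 0.17, 95% interval -0.13 to 0.61, edgeR adjusted p = 0.687) was 0.12 without TTI-101-treated mouse 4, the highest of the treated mice. Its exact permutation p was 0.2 (two-sided, 70 assignments of 4 and 4 mice, smallest possible p = 0.0286).

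Of the SPRED pair, Spred1 had the second largest estimate in size among the 10 genes and Spred2 the smallest, and neither passed the test. Spred1 (ENSMUSG00000027351, chromosome 2, 117121374 to 117182279) was at 132, 104, 121 and 235 CPM in control mice and at 115, 102, 76.3 and 125 CPM in treated mice. All 4 treated mice lay below the control mean, and 2 lay below every control mouse. The log2 fold change was -0.50 (SE 0.26, 95% interval -1.07 to 0.07, edgeR adjusted p = 0.657). It was -0.175 without control mouse 4, and the edgeR unadjusted p, 0.0785 with all mice, was 0.0416 without control mouse 2. Spred2 (ENSMUSG00000045671, chromosome 11, 19924375 to 20024026) was at 56.5, 47.5, 43.5 and 66.8 CPM in control mice and at 59.1, 44.9, 56.3 and 59.8 CPM in treated mice, a log2 fold change of 0.04 (SE 0.17, 95% interval -0.33 to 0.41, edgeR adjusted p = 0.956). This estimate changed sign without control mouse 2, control mouse 3 or TTI-101-treated mouse 4.

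Of the ETS pair, Etv4 showed the largest difference of the 10 genes and Etv5 a small one. Etv4 (ENSMUSG00000017724, chromosome 11, 101769742 to 101785371) was at 10.8, 6.40, 11.4 and 24.8 CPM in control mice and at 6.44, 9.43, 3.00 and 5.60 CPM in treated mice. All 4 treated mice lay below the control mean, 2 lay below every control mouse, and the other two lay above control mouse 2. The mean was 13.3 ± 7.93 CPM for control and 6.12 ± 2.65 CPM for treated mice (SD, n = 4 each). The log2 fold change of -1.12 (SE 0.43, 95% interval -2.09 to -0.16) had an unadjusted p of 0.0265 and an adjusted p of 0.657 from edgeR, and the exact permutation p was 0.0857 (two-sided). Without control mouse 4 the log2 fold change was -0.63 with an unadjusted p of 0.109 from edgeR, and the unadjusted p was also above 0.05 without TTI-101-treated mouse 3 (0.0693) or TTI-101-treated mouse 4 (0.0602). Etv5 (ENSMUSG00000013089, chromosome 16, 22381309 to 22439719) was at 300.3, 189, 217 and 275 CPM in control mice and at 242, 236, 209 and 215 CPM in treated mice. The treated values all fell within the control range, with a log2 fold change of -0.12 (SE 0.17, 95% interval -0.50 to 0.26, edgeR adjusted p = 0.840) that was -0.0059 without control mouse 1.

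**Figure D2:**
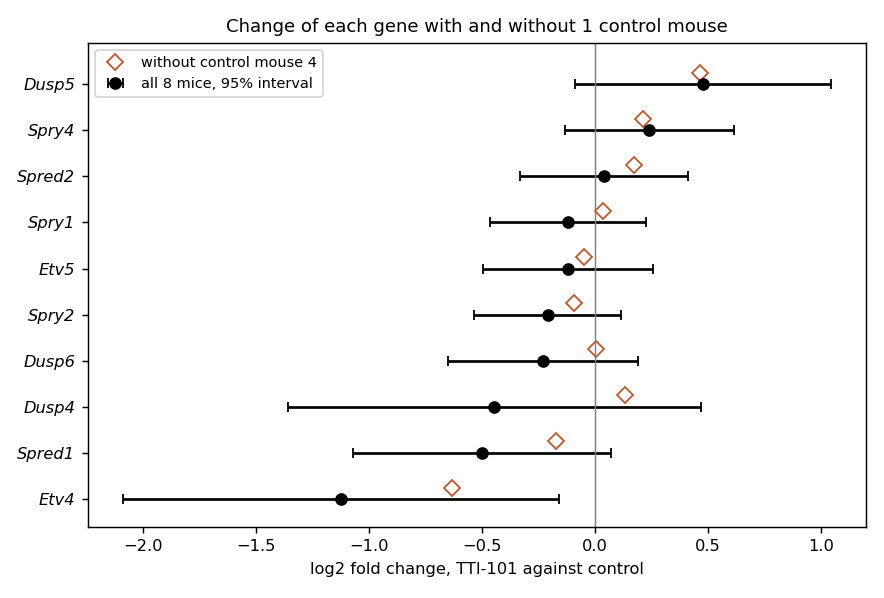
Fitted log2 fold change of each gene in TTI-101-treated against control lungs, with its 95% interval over all 8 mice (black) and the estimate without control mouse 4 (open diamonds). The interval of Etv4 alone, from -2.09 to -0.16, excludes 0, and the estimates of Dusp4, Dusp6 and Spry1 cross 0 without that mouse.

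Much of the lower average in treated lungs rested on control mouse 4. This mouse had the highest level of all 8 for 7 genes, at 2.95 times the mean of the other control mice for Dusp4, 2.60 times for Etv4, 1.97 times for Spred1, 1.67 times for Dusp6, 1.42 times for Spry1, 1.36 times for Spred2 and 1.31 times for Spry2. For Etv5 it was second of 8, while for Dusp5 and Spry4 it was at 0.946 and 0.891 times the other controls. Without it, 6 of the 10 estimates were positive and 4 negative, their median was 0.02, and no gene had an unadjusted p under 0.05 by edgeR, where 3.03% of all genes tested did. With all mice, the SD between control mice exceeded that between treated mice for 8 of the 10 genes. Without control mouse 4 it did so only for Dusp4, Etv4 and Etv5, and was the smaller for the other genes.

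The same mouse differed in markers of cell types, counted as summed CPM over short lists of which all genes had counts. Its 6 alveolar type 2 markers summed to 68040 CPM against 39010 to 46740 in the other control mice and 29140 to 55540 in treated mice. Its 4 markers of dividing cells, Mki67, Top2a, Cdk1 and Ccnb1, summed to 116 CPM against 43.4 to 64.4 in the other controls and 30.3 to 49.9 in treated mice. Conversely, its 6 endothelial markers summed to 762 CPM against 2188 to 2490 in the other controls and 2047 to 3448 in treated mice. Its 5 fibroblast markers summed to 1136 CPM, against 1400 to 2097 and 1901 to 2615. Between groups, all 6 B cell markers had higher estimates at an unadjusted p under 0.05 from edgeR, summing to 96.7 to 263 CPM in control and 239 to 489 CPM in treated mice. All 7 multiciliated cell markers had lower estimates, 4 of them at an unadjusted p under 0.05 from edgeR, summing to 535 to 1352 CPM and 507 to 1129 CPM. All 5 red blood cell markers had higher estimates, 4 of them at an unadjusted p under 0.05 from edgeR, summing to 58.0 to 264 CPM in control and 205 to 1586 CPM in treated mice. Of 4 adipocyte markers 3 were tested, and all 3 were higher at an unadjusted p under 0.05 from edgeR, with sums of 3.97 to 23.8 CPM and 17.9 to 61.04 CPM. The part of these differences in the levels of the 10 genes was not tested.

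Over the 8 mice, 33 of the 45 pairs of genes had a positive Pearson correlation of log2 CPM, with a median r of 0.488, and 0 pairs had an adjusted exact permutation p under 0.05 (7 had an unadjusted one). The median r was 0.05 without control mouse 4. The closest pair was Spred1 and Etv4 (r = 0.890, exact permutation p = 0.00885, adjusted p = 0.244 over 45 pairs; Spearman rho = 0.643, exact permutation p = 0.0962, adjusted p = 0.433). Without the 2 mice farthest from the median of Spred1, control mouse 4 and TTI-101-treated mouse 3, r was 0.214, while without control mouse 4 alone it was 0.755. Leaving out the farthest mice also narrows the range of the first gene, which by itself can lower r. Dusp4 and Spred2 followed (r = 0.796, exact permutation p = 0.0108, adjusted p = 0.244; rho = 0.857, exact permutation p = 0.0107, adjusted p = 0.433), with r = 0.464 without the 2 mice farthest from the median of Dusp4 and 0.690 without control mouse 4. Spry2 and Spry4 ran opposite to each other (r = -0.745, exact permutation p = 0.0407, adjusted p = 0.265; rho = -0.690, exact permutation p = 0.0694, adjusted p = 0.433), and r was -0.244 without the 2 mice farthest from the median of Spry2 and -0.782 without control mouse 4 alone. Among the 17128 other genes tested, those closest to Dusp6 over the 8 mice included Wwc1 (r = 0.977), Tars (r = 0.968), Atic (r = 0.962) and Pdia4 (r = 0.955), with adjusted exact permutation p between 0.396 and 0.428. The rho of these 4 genes lay between 0.714 and 0.905 with unadjusted exact permutation p between 0.00456 and 0.0576, and without control mouse 4 and TTI-101-treated mouse 2, the farthest from the median of Dusp6, r ranged from 0.178 for Pdia4 to 0.742 for Atic.

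To set the 10 genes beside the makeup of the lung, their log2 levels were correlated with the log2 summed level of 15 marker lists, a comparison chosen after the data were seen, and 1 of 150 relations had an adjusted exact permutation p under 0.05. This was Etv4 against the endothelial markers Pecam1, Cdh5, Cldn5, Tie1, Ramp2 and Emcn (r = -0.914, exact permutation p = 0.000322, adjusted p = 0.0484; rho = -0.905, exact permutation p = 0.00456). The adjustment over the 150 relations was made for r only, and the p-values of rho in this paragraph are unadjusted. Without the 2 mice farthest from the median of these markers r was -0.878, without control mouse 4 it was -0.927, and for deviations from the group means it was -0.879. Etv4 was positively related to the alveolar type 2 markers (r = 0.892, exact permutation p = 0.00228, adjusted p = 0.0946; rho = 0.881, exact permutation p = 0.00724), with r = 0.818 without the 2 farthest mice and 0.796 without control mouse 4. Against the markers of dividing cells r was 0.792 (exact permutation p = 0.0242, adjusted p = 0.207; rho = 0.619, exact permutation p = 0.115), with 0.566 without the 2 farthest mice and 0.506 without control mouse 4. For deviations from the group means, r was 0.843 with the alveolar type 2 markers and 0.631 with those of dividing cells. Etv4 also ran opposite to the fibroblast (r = -0.894), alveolar type 1 (r = -0.860), adipocyte (r = -0.826) and B cell markers (r = -0.818). Adjusted exact permutation p of these 4 lay between 0.0946 and 0.207. In that order, r was -0.751, 0.366, -0.283 and -0.473 without the 2 farthest mice. Without control mouse 4 alone, r was -0.771, -0.681, -0.607 and -0.661. For deviations from the group means it was -0.857, -0.790, -0.696 and -0.669. TTI-101-treated mouse 2, with the highest Etv4 of the treated mice at 9.43 CPM, also had the highest alveolar type 2 sum of that group, 55540 CPM, and its lowest endothelial sum, 2047 CPM. Dusp6 against the cardiomyocyte markers had an r of larger size, -0.965 (exact permutation p = 0.00241, adjusted p = 0.0946, rho = -0.833, exact permutation p = 0.0154), with -0.583 without the 2 farthest mice and -0.832 without control mouse 4. Spred1 against the alveolar type 1 markers had an r of -0.953 (exact permutation p = 0.00441, adjusted p = 0.0946, rho = -0.690, exact permutation p = 0.0694), which was -0.304 without the 2 farthest mice and -0.868 without control mouse 4. For Etv5, the factor of alveolar type 2 cells, r with the alveolar type 2 markers was 0.488 (exact permutation p = 0.222; rho = 0.524, exact permutation p = 0.197), with 0.243 without the 2 farthest mice and 0.292 without control mouse 4.

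**Figure D3:**
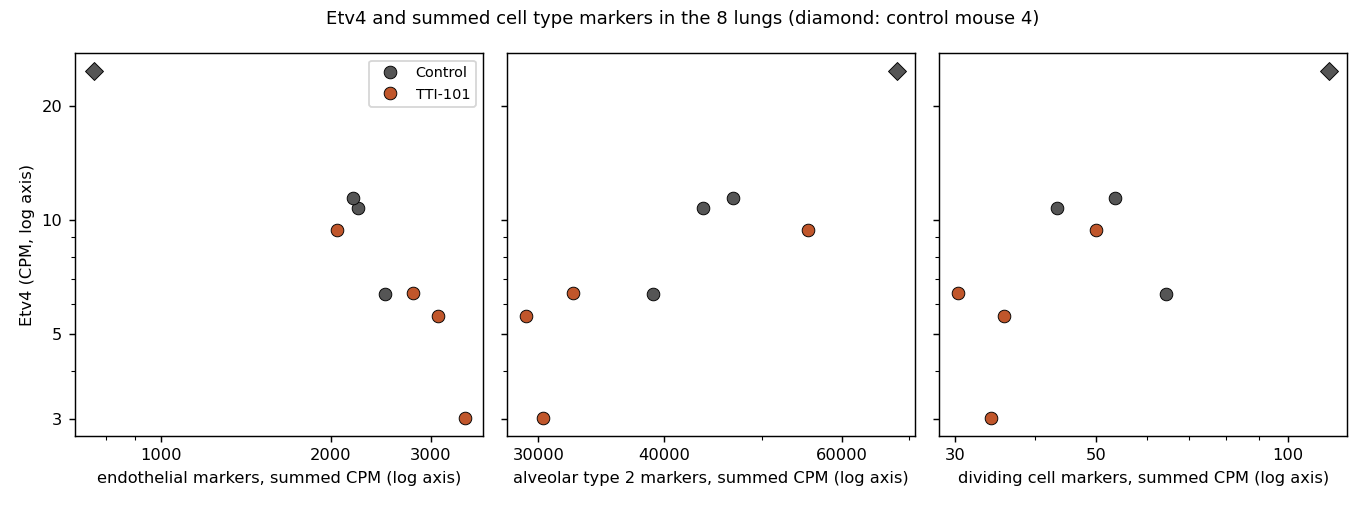
Etv4 (CPM) against the summed CPM of endothelial, alveolar type 2 and dividing cell markers in each of the 8 lungs, on log axes, with control mice in gray, TTI-101-treated mice in orange and control mouse 4 as a diamond. Lungs with a larger endothelial sum have less Etv4 (r = -0.914) and those with a larger alveolar type 2 sum have more (r = 0.892).

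The rest of the pathway was described by 6 further gene lists by role, in which 73 of 75 genes were tested and 0 passed an adjusted p of 0.05 by edgeR. At an unadjusted p under 0.05, 4 of them were higher and 6 lower, shares to be read against 3.02% and 3.58% of all genes. Of 17 core genes of the Ras and ERK cascade, including Braf, Map2k1, Map2k2 and Mapk3, 9 had higher and 8 lower estimates. Their median log2 fold change was 0.00454, with 0 at an unadjusted p under 0.05. With each mouse left out in turn, this median ranged from -0.07 to 0.05. Ksr1, a scaffold of the cascade, had the highest log2 fold change at 0.20 (edgeR unadjusted p = 0.393), or 0.05 without control mouse 4.

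Of the 9 other Dusp genes, 6 had higher estimates, with a median log2 fold change of 0.47, and 2 had an unadjusted p under 0.05. These were the inducible nuclear phosphatase genes Dusp1 and Dusp2. Dusp1 was at 252, 264, 269 and 155 CPM in control mice and at 457, 226, 406 and 454 CPM in treated mice. TTI-101-treated mouse 2 lay within the control range and the other 3 treated mice lay above every control mouse (log2 fold change 0.71, SE 0.25, edgeR unadjusted p = 0.0178, adjusted p = 0.657), and the log2 fold change was 0.57 without control mouse 4. Dusp2 had a log2 fold change of 0.72 (edgeR unadjusted p = 0.0455, adjusted p = 0.657), or 0.64 without control mouse 4 (edgeR unadjusted p = 0.0885). Dusp9 had the lowest estimate at -0.60, or -0.34 without control mouse 4.

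Of the other inhibitors of Ras and ERK, 9 of 10 were tested, Spry3 having at most 28 counts in a library. The median was 0.03, with Lrig1, a restrainer of ERBB receptors, at 49.6 ± 19.6 CPM across control mice and 31.9 ± 8.14 CPM across treated mice (SD, n = 4 each) (log2 fold change -0.63, edgeR unadjusted p = 0.0411, adjusted p = 0.657), and -0.32 without control mouse 4 (edgeR unadjusted p = 0.158). Spred3 had the highest estimate at 0.22, or 0.14 without control mouse 4. With each mouse left out in turn, the median of this list ranged from -0.10 to 0.13. Of the 10 other ETS factors, 8 had higher estimates with a median of 0.13, and Erf, a repressor named here after its values were seen, had groups that did not overlap (log2 fold change 0.30, edgeR unadjusted p = 0.0804). Ets2, itself a target of Ras signaling, was at 151 ± 30.5 CPM across control mice and 208 ± 28.4 CPM across treated mice (SD, n = 4 each) (log2 fold change 0.47, edgeR unadjusted p = 0.0234, adjusted p = 0.657), with an unadjusted p of 0.0529 without control mouse 4. Ets1 had the highest estimate at 0.66 and Etv1, which belongs to the same subfamily as Etv4 and Etv5, the lowest at -0.49, or -0.17 without control mouse 4.

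The other ERK-responsive transcripts held the largest differences. Of 15 genes, 6 had higher and 9 lower estimates, with a median of -0.14, and 3 were lower and 1 higher at an unadjusted p under 0.05. Without control mouse 4 the median was 0.05, with 8 higher and 7 lower estimates. At an unadjusted p under 0.05 from edgeR, 3 were then lower and 1 higher, but these were not all the same genes. Ccnd1 and Ereg (0.0202) stayed among them, while Areg and Ier3 did not. Ccnd1, which encodes the G1 cyclin D1, was at 202, 209, 229 and 384 CPM in control mice and at 152, 151, 146 and 142 CPM in treated mice. Every treated mouse lay below every control mouse, as was so for 1.43% of all genes tested (log2 fold change -0.79, SE 0.21, 95% interval -1.25 to -0.33, edgeR unadjusted p = 0.00321, adjusted p = 0.657). Without control mouse 4 the log2 fold change was -0.52 (edgeR unadjusted p = 0.00185). Ereg, encoding the EGFR ligand epiregulin, was at 10.1, 7.05, 6.38 and 21.4 CPM in control mice and at 3.50, 5.52, 1.45 and 4.32 CPM in treated mice. These groups did not overlap either, and the log2 fold change of -1.60 (SE 0.47, edgeR unadjusted p = 0.00632, adjusted p = 0.657) was -1.08 without control mouse 4. Areg, encoding amphiregulin, was at 30.8, 23.4, 42.4 and 90.8 CPM in control mice and at 14.4, 38.4, 9.95 and 17.2 CPM in treated mice, with an overlap through TTI-101-treated mouse 2. Its log2 fold change was -1.23 (edgeR unadjusted p = 0.0285, adjusted p = 0.657) and -0.68 without control mouse 4 (edgeR unadjusted p = 0.122). Ier3 had a log2 fold change of 0.49 (edgeR unadjusted p = 0.0485, adjusted p = 0.657), with 0.37 without control mouse 4 (edgeR unadjusted p = 0.0985) and 0.28 with TTI-101-treated mouse 3 left out (edgeR unadjusted p = 0.176).

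Among 14 receptors and FGF ligands that feed the cascade, 13 were tested, Fgf9 having at most 14 counts in a library. Of these, 9 had higher and 4 lower estimates. Met, the receptor for hepatocyte growth factor, was at 94.6, 105, 99.9 and 223 CPM in control mice and at 69.9, 83.2, 47.9 and 85.1 CPM in treated mice. All 4 treated mice lay below all 4 control mice, with a log2 fold change of -0.87 (SE 0.30, edgeR unadjusted p = 0.0144, adjusted p = 0.657) that was -0.47 without control mouse 4 (edgeR unadjusted p = 0.0404). Fgfr2, the epithelial FGF receptor, was at 329 ± 85.2 CPM across control mice and 235 ± 43.0 CPM across treated mice (SD, n = 4 each) (log2 fold change -0.48, edgeR unadjusted p = 0.0433, adjusted p = 0.657), and had an unadjusted p of 0.147 without control mouse 4. Fgfr4 had the highest estimate at 1.03, or 0.64 without TTI-101-treated mouse 3. The median of this list was 0.12 with all mice and -0.03 without control mouse 4. Beside these lists, all 4 markers of dividing cells had an unadjusted p under 0.05 from edgeR, with a median log2 fold change of -0.90, and their part in the level of Ccnd1 was not tested.

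**Figure D4:**
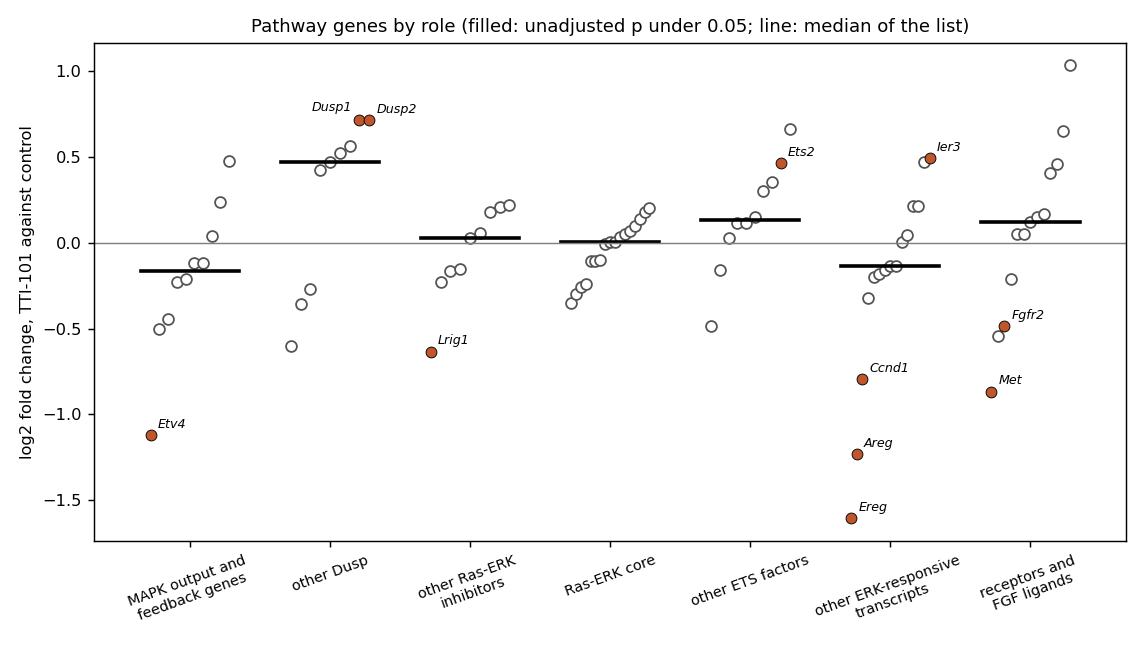
Fitted log2 fold change of each tested gene in TTI-101-treated against control lungs, by role in the pathway, with filled points for an unadjusted p under 0.05 and a line at the median of each list. The cascade itself centers on 0 (median 0.00454), while Ereg (-1.60), Areg (-1.23), Etv4 (-1.12), Met (-0.87) and Ccnd1 (-0.79) lie lowest.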

How the data were processed

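The authors deposited unnormalized whole-number counts for each Ensembl gene, for 1 library per mouse. Libraries were made with the TruSeq Stranded mRNA kit and sequenced and processed by the provider. The submitters' processing notes name STAR, DESeq2 and mm10, and the counting tool and annotation are not given in the sources used here. The coordinates of 9 of the 10 genes equal those in GENCODE M21 (GRCm38).

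The software was DESeq2 1.42.0, limma 3.58.1 and edgeR 4.0.16 under R 4.3.3. In edgeR, filterByExpr (minimum count 10) was applied, libraries were scaled by TMM, and groups were compared by robust quasi-likelihood F-tests without covariates, with Benjamini-Hochberg adjustment over all genes tested. Correlations used log2 CPM with a prior count of 2 and exact permutations over 40320 pairings. Fits were tested on simulated data. The p-values measure the spread between mice. Gene lists, members and tests were chosen with earlier results of these data known. Named were the 10 genes, list genes with an unadjusted p under 0.05 or the largest change in each direction, and the 5 genes most correlated with Dusp6, and some of these results are not reported here. The sample labels do not state whether replicate numbers pair the mice, and the main fit did not pair them. The comparisons of the 10 genes, the named genes, the list medians and the counts of calls were recomputed with limma-voom and with the Wald test of DESeq2, with scaling by library totals or by DESeq2's size factors, unfiltered or with 10 or more counts required of each library, with a replicate block, and leaving out each library. The pathway lists under these alternatives and the correlations with cell type markers were added after the data were seen.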

Additional observations from a re-analysis of the deposited data

Results flagged for a closer look

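For the 10 genes, their median deviation and the total counts, the distance of the highest or lowest mouse from the next one was divided by the range of its group of 4 and set against Dixon's 95% critical value. The value was exceeded in 3 of 24 groups, where about 1 in 20 groups would exceed it by chance.

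For Dusp6, control mouse 4 had a gap of 0.876 of the control range, at 219 CPM against 124 to 136 CPM in the other control mice. Spry2 in the same mouse had a gap of 0.836, at 64.6 CPM against 47.6 to 50.4 CPM. The total counts of control mouse 1 had a gap of 0.830, at 26873509 against at most 18220467 in the other control mice. TTI-101-treated mouse 1, not flagged, likewise had the highest total of its group, 25920509 against at most 17982612 in the other treated mice. No cause was tested for these values.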

How the results depend on the processing

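With edgeR, 0 genes were called at an adjusted p under 0.05, against 4 with DESeq2, and the 10 MAPK output and feedback genes were not among those called under any setting run. Genes at an unadjusted p under 0.05 numbered 1132, and 1849 without a filter, where more genes were tested. Leaving out 1 mouse at a time, the calls ranged from 0 to 1, genes at an unadjusted p under 0.05 from 422 to 2498 (with TTI-101-treated mice 3 and 2 left out, respectively), the 10 genes among them from 0 to 2, and the median log2 fold change of the 10 genes from -0.23 to 0.02. Under the other alternatives this median ranged from -0.16 to -0.12, with 3 genes higher and 7 lower in each. The log2 fold changes that changed sign with 1 mouse left out were those of Dusp4 (-0.71 to 0.13), Dusp6 (-0.31 to 0.0050) and Spry1 (-0.19 to 0.033), each without control mouse 4, and Spred2 (-0.049 to 0.17).

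The replicate numbers are shared between groups. Deviations of same-numbered mice correlated at 0.393, 0.0822, 0.158 and 0.0707, and 4 of 8 libraries correlated best with their own number. Whether same-numbered mice were handled together was not tested. With a replicate block, 1298 genes had an unadjusted p under 0.05 and the median of the 10 genes was -0.15. Etv4 then had an unadjusted p of 0.0574 and Spred1 one of 0.0361 from edgeR. Etv4 had the lowest count of the 10 genes, 54 in 1 library, with a counting error of 13.6% there. Its SD between mice was 59.4% of the mean in control and 43.3% in treated mice. The cause of these shifts was not tested.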
